A study of Mus musculus with 12 samples.

Results

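The genes described here are 60 genes of the G2/M transition and of mitosis, genes with Kif symbols left out, chosen by symbol from the 15478 genes tested in the authors' deposited table, which lists all 60. RNA was measured by sequencing of poly-A libraries from primary neural precursor cells, cultured undifferentiated from adult female C57BL/6 mice aged 5 to 12 weeks. The 4 control samples received PBS as a sham exposure, 4 samples received 100 µM H2O2 for 1 h and 4 received it for 8 h, and the design text states that each of 4 animals gave a control, a 1 h and an 8 h sample. No genotype other than the strain is given, and the collection time of the controls is not stated. The authors' deposited table gives each gene 1 log2 fold change a comparison without any value of a single sample, the samples removed from it as outliers are not named, and so depth is unknown and the number of samples per group behind a test is at most 4. The value after ± is an implied standard error of the log2 fold change, obtained by dividing the fold change by the root of the deposited likelihood ratio. A gene is said to have risen or fallen where the adjusted p of the authors' edgeR likelihood ratio test is below 0.05.

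Cells enter mitosis when cyclin-dependent kinase 1, bound to A- and B-type cyclins, is freed from its inhibitory phosphates. Chromosomes are then compacted by condensin, attached to the spindle at kinetochores under the watch of the spindle checkpoint, and parted when the anaphase-promoting complex (APC/C) sets separase free from securin. Transcripts of most of these genes are made late in the cycle under the MuvB, B-MYB and FOXM1 factors and are held low in non-dividing cells by the DREAM repressor complex, and neural precursors are among the few cells of the adult brain that still divide.

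After 8 h of H2O2 the genes were far lower than in control cells, to a median of 22.2% of the control level. In the authors' deposited table, 56 of the 60 fell and 2 rose at 8 h against control, where 28.2% of all genes tested fell and 27.4% rose. The median log2 fold change of the 60 was -2.17, against 0.01 for all genes, and single genes ran from -3.36 to 0.68. Of the 60, 50 fell at least 2-fold, against a background of 5.81%, and 38 fell at least 4-fold, against 1.12%. The authors' deposited table has 174 genes that fell at least 4-fold, and the 38 are 21.8% of these and 63.3% of the 60. The exceptions were the securin gene Pttg1 and the spindle gene Ckap2, which rose, and the kinetochore gene Spc25 and the APC/C activator gene Fzr1, which did not pass the test. On GRCm38 (GENCODE M21), Pttg1 lies on chromosome 11 from 43420250 to 43426251, Ckap2 on chromosome 8 from 22168160 to 22185819, Spc25 on chromosome 2 from 69193895 to 69206194 and Fzr1 on chromosome 10 from 81366222 to 81378516, all on the minus strand. In bulk samples such as these, fewer cells in G2 and mitosis and less RNA per cell cannot be told apart.

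After 1 h many of these genes were slightly higher than in control cells. Of the 60, 34 rose and 1 fell at 1 h against control in the authors' deposited table, where 20.5% of all genes rose and 22.2% fell. The median log2 fold change was 0.18, against 0.01 for all genes, the range was -0.13 to 0.62, and 0 of the 60 rose or fell 2-fold, against 3.99% and 0.181% of all genes. The only gene of the 60 that fell at 1 h was the condensin subunit gene Smc2 (-0.13 ± 0.05, adjusted p 0.029 in the authors' edgeR test). Between 1 h and 8 h, 58 of the 60 fell and 2 rose in the authors' deposited table, where 32.4% of all genes fell and 30.3% rose, with a median of -2.43 for the 60 and -0.01 for all genes; changed in either direction were all 60 and 62.7% of all genes. The comparisons of 1 h and of 8 h with control share the control samples, so their values are given side by side and not as independent evidence of each other.

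**Figure D1:**
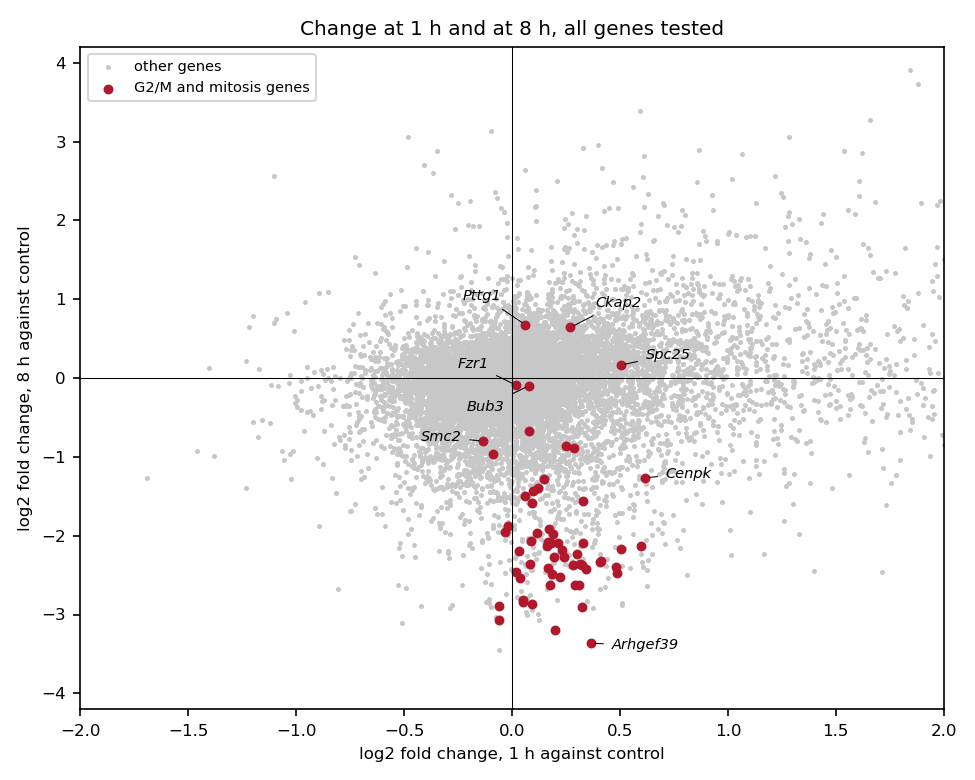
Log2 fold change at 1 h (x axis) and at 8 h (y axis) against the same control samples, for the 60 genes (red) and the other genes of the authors' deposited table (grey). The 60 form a column between -0.13 and 0.62 on the x axis that reaches down to -3.36 on the y axis, with Pttg1 and Ckap2 above 0 and Spc25, Fzr1 and Bub3 near it; 118 other genes lie outside the plotted range.

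The start regions of the 60 genes were read for 2 short sequences known from promoters of cell cycle genes. These are the cell cycle genes homology region (CHR, TTTGAA), bound by MuvB complexes, and the CCAAT box, bound by NF-Y, each searched on both strands, with overlapping matches all counted. RefSeq promoters (GRCm38.p6, 250 bases before to 50 after the start) were found for 50 of the 60 genes, 55 promoters in all. A CHR stood in 58.2% of these, against 11.8% of the promoters of all genes in the authors' deposited table, the 60 included, and 17.9% of all mouse promoters in the reference. Within 50 bases of the start the shares were 50.9%, 3.03% and 4.94%. CCAAT stood in 78.2% of the promoters of the 60, in 37.7% of those of the genes tested and in 37.4% of all, and both motifs together in 54.5%, 4.82% and 6.95%. At least 2 CCAAT boxes were found in 50.9%, 13.9% and 11.7%. A match is a run of letters and not a shown binding site. The 60 were chosen by symbol as cell cycle genes, so these shares describe the list and not the response to H2O2.

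The promoters of 4 genes with both motifs and the smallest adjusted p at 8 h are shown first, those of the topoisomerase gene Top2a (chr11:99024140-99024439), the proliferation antigen gene Mki67 (chr7:135716330-135716629), the kinetochore gene Cenpf (chr1:189688037-189688336) and the cytokinesis gene Racgap1 (chr15:99651607-99651906). Those of 3 genes that did not fall at 8 h against control follow, Spc25 (chr2:69206164-69206463), Ckap2 (chr8:22185770-22186069) and Pttg1 (chr11:43425932-43426231), picked after their values were seen. All lie on the minus strand of GRCm38.p6 and are written in the direction of transcription, with matches to either motif, on either strand, in capitals.
Top2a: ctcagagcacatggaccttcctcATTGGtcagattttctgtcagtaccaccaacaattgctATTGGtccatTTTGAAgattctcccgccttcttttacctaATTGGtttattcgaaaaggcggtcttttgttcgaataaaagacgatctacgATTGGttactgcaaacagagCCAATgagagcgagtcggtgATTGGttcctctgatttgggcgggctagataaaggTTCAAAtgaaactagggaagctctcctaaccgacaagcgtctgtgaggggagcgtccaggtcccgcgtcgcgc
Mki67: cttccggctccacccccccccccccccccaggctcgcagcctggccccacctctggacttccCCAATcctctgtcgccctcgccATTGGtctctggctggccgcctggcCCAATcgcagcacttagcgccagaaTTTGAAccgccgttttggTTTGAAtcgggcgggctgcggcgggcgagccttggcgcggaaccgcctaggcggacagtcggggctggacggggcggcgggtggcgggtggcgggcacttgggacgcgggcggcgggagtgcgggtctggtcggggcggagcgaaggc
Cenpf: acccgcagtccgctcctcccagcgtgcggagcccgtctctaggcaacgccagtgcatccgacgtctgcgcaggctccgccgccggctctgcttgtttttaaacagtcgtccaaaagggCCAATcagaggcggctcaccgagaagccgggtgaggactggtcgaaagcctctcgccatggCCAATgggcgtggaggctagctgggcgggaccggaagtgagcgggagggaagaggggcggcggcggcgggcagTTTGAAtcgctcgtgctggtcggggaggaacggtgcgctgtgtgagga
Racgap1: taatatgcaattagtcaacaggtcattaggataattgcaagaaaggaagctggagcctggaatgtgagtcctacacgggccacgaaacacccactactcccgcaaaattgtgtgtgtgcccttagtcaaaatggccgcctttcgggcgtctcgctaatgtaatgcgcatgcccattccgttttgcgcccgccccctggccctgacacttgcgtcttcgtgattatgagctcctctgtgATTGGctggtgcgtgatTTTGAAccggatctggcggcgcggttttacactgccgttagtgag
Spc25: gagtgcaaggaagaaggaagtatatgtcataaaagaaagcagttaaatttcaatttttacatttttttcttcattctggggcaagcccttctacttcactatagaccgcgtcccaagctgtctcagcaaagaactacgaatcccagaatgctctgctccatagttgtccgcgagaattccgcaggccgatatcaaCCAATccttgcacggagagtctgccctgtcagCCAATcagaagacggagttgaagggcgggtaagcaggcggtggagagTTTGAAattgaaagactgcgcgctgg
Ckap2: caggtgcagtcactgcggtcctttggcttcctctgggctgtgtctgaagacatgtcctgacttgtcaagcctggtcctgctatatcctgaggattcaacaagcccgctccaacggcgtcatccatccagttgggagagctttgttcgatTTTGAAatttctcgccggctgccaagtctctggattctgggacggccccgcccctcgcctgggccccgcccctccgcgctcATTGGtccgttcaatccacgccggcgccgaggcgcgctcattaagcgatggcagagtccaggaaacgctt
Pttg1: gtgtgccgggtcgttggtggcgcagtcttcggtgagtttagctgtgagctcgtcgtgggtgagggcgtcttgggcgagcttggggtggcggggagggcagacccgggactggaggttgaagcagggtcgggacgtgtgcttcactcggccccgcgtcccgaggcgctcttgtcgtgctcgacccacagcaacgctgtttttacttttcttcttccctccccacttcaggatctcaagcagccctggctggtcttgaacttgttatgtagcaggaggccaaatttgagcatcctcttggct

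In Top2a the CHR nearest to the start began at base -23 and 6 CCAAT boxes lay upstream of it, from -227 to -58. In Cenpf and Racgap1 the CHR lay just past the start, at bases 2 and 5, and Spc25, which did not fall at 8 h, has the same arrangement with the CHR at base 24 and CCAAT at -55 and -23. The window of Fzr1, which did not fall at 8 h either, is not shown, and in it a CCAAT lay at -79 and no CHR was found. The Ckap2 window holds a CHR further upstream, at -101, and 1 CCAAT at -20, and the Pttg1 window holds neither sequence. The Pttg1 window reaches only to base 43426231, inside the gene as placed by GENCODE M21, which begins at 43426251 on the minus strand. It therefore says nothing of the bases upstream of that start. Genes with and without a match both fell in the median. In the authors' deposited table the median log2 fold change at 8 h was -2.10 for the 29 genes with a CHR and -2.19 for the 21 without. It was -2.12 for the 38 with CCAAT and -2.37 for the 12 without. For the 10 with neither motif it was -2.45 (Arhgef39, Birc5, Knstrn, Mad2l1, Melk, Ncaph, Nuf2, Nusap1, Pttg1 and Sapcd2). Each group without a match includes Pttg1, whose upstream bases were not read. The part of the motifs in the fall was not tested.

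**Figure D2:**
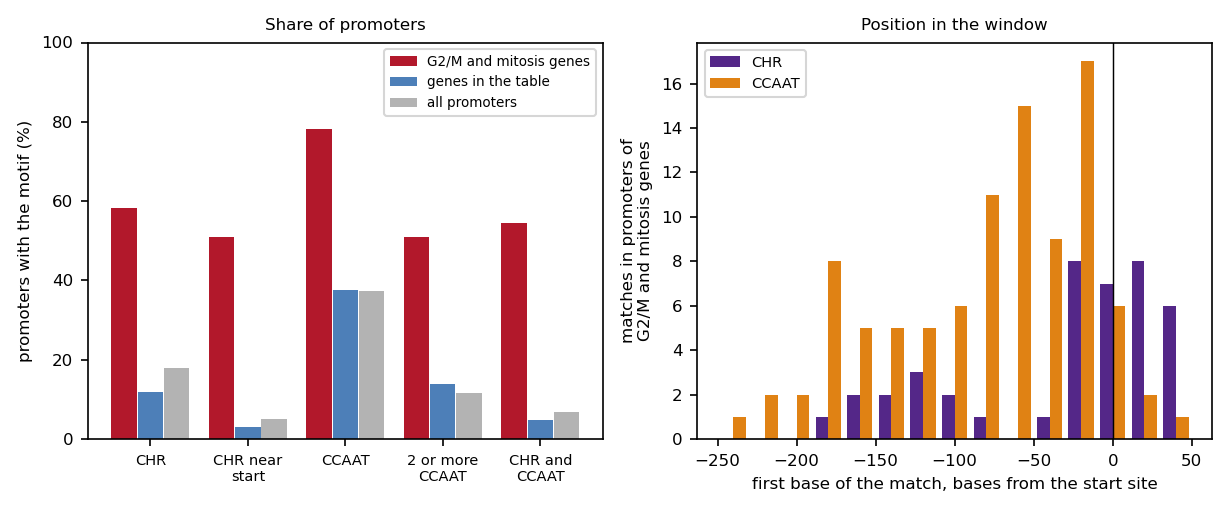
Left, share of promoters (%) that hold a CHR, a CHR within 50 bases of the start, CCAAT, at least 2 CCAAT, or both motifs, for the 60 genes (red, 55 promoters), for genes in the authors' deposited table (blue) and for all promoters of the reference (grey). Right, number of matches in the promoters of the 60 genes by distance in bases from the start site, in bins of 20 bases; CHR matches gather around the start and CCAAT matches upstream of it.

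The engine of mitotic entry fell as a whole. All 8 genes of this group fell at 8 h in the authors' deposited table, with a median of -2.30, and 5 of the 8 rose at 1 h. Beside the counts of this and the following groups stand 28.2% of all genes that fell at 8 h and 20.5% that rose at 1 h. For Cdk1, the kinase itself, the authors' deposited table gives 0.30 ± 0.07 at 1 h (adjusted p 2.7e-05, edgeR), -2.23 ± 0.08 at 8 h (1.1e-181) and -2.53 ± 0.08 for 8 h against 1 h (9.7e-238), so that at 8 h it stood at 21.4% of control (95% interval 19.3 to 23.7). The cyclin genes that activate it fell as well. Ccnb1 stood at 0.09 ± 0.08 at 1 h, -2.87 ± 0.10 at 8 h and -2.96 ± 0.10 between the times in the authors' deposited table, and Ccna2 at 0.22 ± 0.07, -2.53 ± 0.08 and -2.75 ± 0.08. Ccnb2 changed by 0.28 ± 0.10 at 1 h and -2.37 ± 0.12 at 8 h in the authors' deposited table. Ccnb1 is uncertain, because 23.4% of its 50-base stretches also occur in transcripts of other loci, pseudogenes among them. Of the exon bases of Ccna2, 12.5% are also exon of Exosc9 on the other strand.

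The phosphatases that strip the inhibitory phosphates from CDK1 fell unequally. In the authors' deposited table Cdc25c changed by 0.20 ± 0.11 at 1 h (adjusted p 0.14, edgeR) and fell by 3.20 ± 0.16 at 8 h, to 10.9% of control, and -3.40 ± 0.15 separated 8 h from 1 h. Cdc25b fell by 1.49 ± 0.09 at 8 h, and its 95% interval of -1.68 to -1.31 lay above that of Cdc25c, -3.51 to -2.90, in the authors' deposited table. Foxm1, a transcription factor that drives genes of this class, rose by 0.21 ± 0.05 at 1 h and fell by 2.10 ± 0.06 at 8 h, with -2.31 ± 0.06 between the times, in the authors' deposited table. Cks2, a small subunit that docks CDK1 on its substrates, fell least of the 8 at 8 h, with -0.88 ± 0.13 after 0.29 ± 0.12 at 1 h in the authors' deposited table. Cks2 shares 29.7% of its 50-base stretches with other loci, so its value is uncertain. Of the exon bases of Cdc25c, 12.7% are also exon of Gm3550 on the other strand.

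The other mitotic kinases fell to a similar depth. All 5 fell at 8 h in the authors' deposited table, with a median of -2.37, and 3 rose at 1 h. Plk1, the polo-like kinase that acts at centrosomes and kinetochores, changed by -0.06 ± 0.08 at 1 h (adjusted p 0.57, edgeR), -2.89 ± 0.10 at 8 h and -2.83 ± 0.10 between the times in the authors' deposited table. Pbk, a kinase active in mitosis, was among the genes that rose most at 1 h, by 0.48 ± 0.09, and it stood at -2.40 ± 0.11 at 8 h and -2.88 ± 0.10 between the times in the authors' deposited table. Nek2, which frees the centrosomes from each other, gave 0.32 ± 0.12 at 1 h and -2.37 ± 0.14 at 8 h, and Melk gave 0.23 ± 0.09 and -2.18 ± 0.11 in the authors' deposited table. Aurka, the Aurora kinase of the spindle poles, gave 0.11 ± 0.08 at 1 h (adjusted p 0.28, edgeR), -1.97 ± 0.10 at 8 h and -2.08 ± 0.10 between the times in the authors' deposited table.

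Of the spindle checkpoint genes, all 5 fell at 8 h in the authors' deposited table, with a median of -1.96, but Bub3 fell far less than the rest. Bub1, a kinase that recruits checkpoint proteins to kinetochores, gave 0.20 ± 0.08 at 1 h, -2.27 ± 0.09 at 8 h and -2.47 ± 0.09 between the times in the authors' deposited table. Bub1b, whose product BubR1 binds CDC20 in the inhibitory checkpoint complex, gave -0.03 ± 0.07, -1.96 ± 0.08 and -1.93 ± 0.08 in the same order in the authors' deposited table. Ttk, the kinase at the head of the checkpoint, gave 0.09 ± 0.09, -2.07 ± 0.11 and -2.15 ± 0.11, and Mad2l1, the CDC20-binding subunit, gave 0.10 ± 0.07 at 1 h and -1.43 ± 0.08 at 8 h in the authors' deposited table. Bub3, the scaffold that carries BUB1 and BubR1 to kinetochores, stood at 93.5% of control at 8 h (-0.10 ± 0.04, adjusted p 0.018, edgeR), after 0.08 ± 0.04 at 1 h (adjusted p 0.076), in the authors' deposited table. Between the times Bub3 fell by 0.18 ± 0.04 (adjusted p 6.2e-06, edgeR) in the authors' deposited table. The 95% interval of Bub3 at 8 h, -0.17 to -0.02, did not meet that of any other checkpoint gene.

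The chromosomal passenger complex, which corrects faulty attachments and later directs cytokinesis, rose and then fell with all 4 of its genes. All 4 rose at 1 h, with a median of 0.34, and all 4 fell at 8 h, with a median of -2.21, in the authors' deposited table. Aurkb, the kinase subunit, gave 0.41 ± 0.08 at 1 h, -2.34 ± 0.10 at 8 h and -2.74 ± 0.10 between the times in the authors' deposited table. Birc5, which encodes survivin, gave 0.34 ± 0.07, -2.42 ± 0.09 and -2.76 ± 0.09, and Cdca8, which encodes borealin, gave 0.33 ± 0.08, -2.09 ± 0.09 and -2.42 ± 0.09 in the authors' deposited table. Incenp, the scaffold of the complex, fell less, with 0.15 ± 0.05, -1.28 ± 0.06 and -1.43 ± 0.06 in the authors' deposited table, and its 95% interval at 8 h, -1.40 to -1.17, lay above those of the other 3.

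At the step that ends metaphase, partners of the same reaction moved in opposite directions. Pttg1 encodes securin, which holds separase inactive until the APC/C destroys it, and it rose at 8 h to 160% of control (0.68 ± 0.07, adjusted p 2.0e-20, edgeR) in the authors' deposited table. That rise came after 1 h, since its change at 1 h was 0.06 ± 0.08 and that between the times 0.61 ± 0.07 in the authors' deposited table. Espl1, which encodes separase, gave 0.09 ± 0.08 at 1 h, -1.58 ± 0.08 at 8 h and -1.68 ± 0.09 between the times in the authors' deposited table. Sgo1, the shugoshin gene that guards centromeric cohesion, rose by 0.51 ± 0.11 at 1 h and fell by 2.16 ± 0.14 at 8 h, with -2.67 ± 0.13 between the times, in the authors' deposited table.

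The genes of the APC/C activators also parted. Cdc20, the activator of metaphase, fell by 1.98 ± 0.09 at 8 h, to 25.4% of control, after 0.19 ± 0.08 at 1 h (adjusted p 0.051, edgeR), with -2.17 ± 0.09 between the times, in the authors' deposited table. Fzr1, the activator that takes over in late mitosis and G1 and whose product is known as CDH1, stayed near the control level, at 0.02 ± 0.05 at 1 h (adjusted p 0.81, edgeR) and -0.09 ± 0.05 at 8 h (0.099) in the authors' deposited table. Its 95% interval at 8 h ran from -0.18 to 0.00, and between the times it fell by 0.10 ± 0.05 (adjusted p 0.044, edgeR) in the authors' deposited table, a call that is lost in the authors' voom table. Ube2c, the ubiquitin-conjugating enzyme that works with the APC/C, gave 0.29 ± 0.07, -2.62 ± 0.09 and -2.92 ± 0.09 at 1 h, 8 h and between the times in the authors' deposited table. Cdc20 shares 10.4% of its 50-base stretches with other loci, and 22.8% of the exon bases of Ube2c are also exon of Tnnc2 on the other strand.

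Centromere and kinetochore genes held deep falls and one gene that did not fall against control. At 1 h 7 of the 10 rose and at 8 h 9 fell in the authors' deposited table, with medians of 0.37 and -2.26. The NDC80 complex, the main link between kinetochore and microtubule, has its 4 subunits among the 60, and 3 of them fell together. Ndc80 gave 0.41 ± 0.09 at 1 h, -2.32 ± 0.11 at 8 h and -2.73 ± 0.11 between the times in the authors' deposited table. Nuf2 gave 0.18 ± 0.08 (adjusted p 0.046, edgeR), -2.49 ± 0.10 and -2.67 ± 0.10, and Spc24 gave 0.60 ± 0.10, -2.14 ± 0.13 and -2.73 ± 0.12 in the authors' deposited table. Spc25, the partner of SPC24 at the inner end of the complex, rose by 0.50 ± 0.09 at 1 h (adjusted p 1.5e-07, edgeR), stood at 0.16 ± 0.09 at 8 h (adjusted p 0.10) and fell by 0.34 ± 0.09 between the times in the authors' deposited table. At 8 h it stood at 112% of control (95% interval 99.4 to 126), while the other 3 subunits stood between 17.8% and 22.8%. Spc25 shares no exon bases with another gene.

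The remaining kinetochore genes fell at 8 h. Cenpf, a large protein of the outer kinetochore, gave 0.05 ± 0.06 at 1 h, -2.84 ± 0.08 at 8 h (adjusted p 7.1e-301, edgeR) and -2.89 ± 0.08 between the times in the authors' deposited table. Cenpe, whose product is itself a kinesin motor although its symbol is not a Kif symbol, gave 0.03 ± 0.06, -2.19 ± 0.07 and -2.22 ± 0.07 in the authors' deposited table. Cenpa, the centromeric form of histone H3, gave 0.04 ± 0.08 at 1 h, -2.54 ± 0.09 at 8 h and -2.57 ± 0.09 between the times in the authors' deposited table. Knstrn, a spindle and kinetochore protein, gave 0.48 ± 0.09 at 1 h, -2.47 ± 0.11 at 8 h and -2.96 ± 0.11 between the times in the authors' deposited table. Cenpk and Cenpm, of the network that sits on the centromere throughout the cycle, fell less at 8 h. Cenpk had the highest change of the 60 at 1 h, 0.62 ± 0.13, and then -1.27 ± 0.15 at 8 h and -1.88 ± 0.14 between the times in the authors' deposited table, while Cenpm gave 0.33 ± 0.11 at 1 h and -1.56 ± 0.13 at 8 h. The 6 highest changes at 1 h were those of Cenpk, Spc24, Sgo1, Spc25, Knstrn and Pbk, of which 4 are kinetochore genes.

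**Figure D3:**
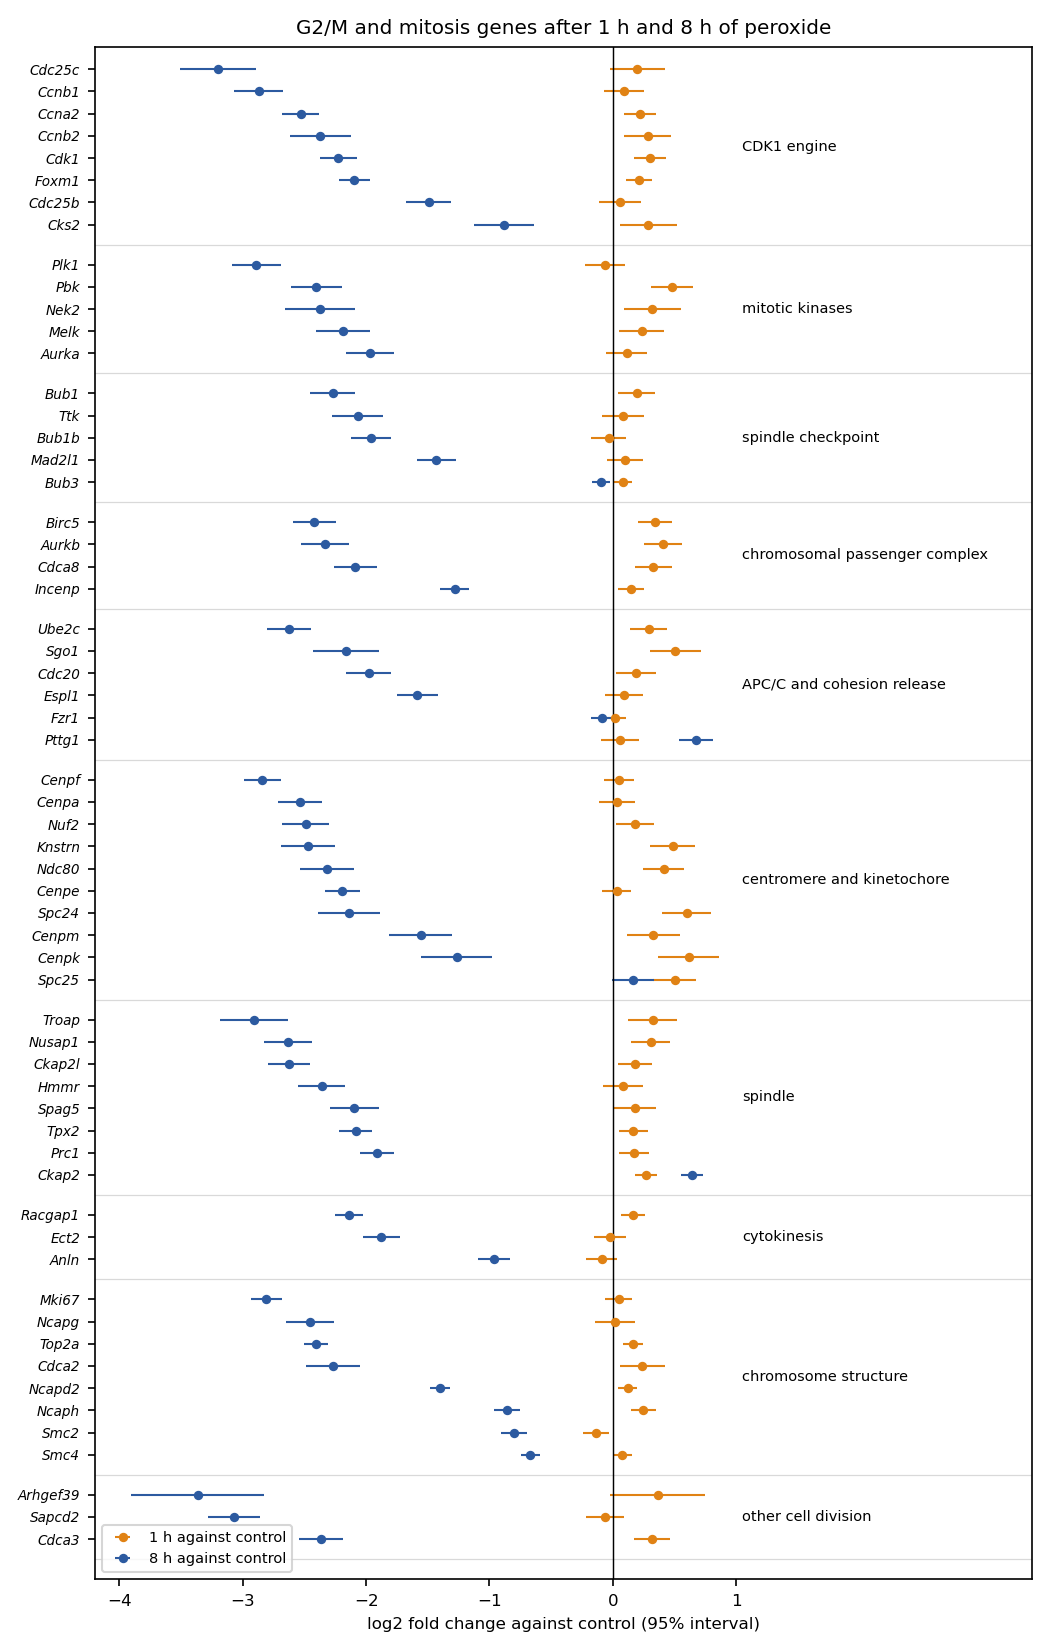
Log2 fold change against control (x axis) of each of the 60 genes at 1 h (orange) and 8 h (blue), grouped by role and ordered within a role by the value at 8 h; points are the authors' deposited fold changes and lines the 95% intervals from the implied standard errors. The values at 1 h lie between -0.13 and 0.62, and at 8 h most lie near -2.17 with Bub3, Fzr1, Spc25, Ckap2 and Pttg1 near or above 0.

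Among the spindle genes, the related Ckap2 and Ckap2l, which both encode microtubule-associated proteins, both rose at 1 h and went opposite ways at 8 h. Ckap2 rose at 1 h by 0.27 ± 0.05 (adjusted p 4.5e-08, edgeR), stood at 0.64 ± 0.04 at 8 h (4.9e-46), 156% of control, and rose by 0.37 ± 0.04 between the times (2.2e-16) in the authors' deposited table. Ckap2l gave 0.18 ± 0.07 at 1 h (adjusted p 0.031, edgeR), -2.62 ± 0.09 at 8 h, 16.2% of control, and -2.80 ± 0.09 between the times in the authors' deposited table. Per kilobase of exon, Ckap2 had the highest mean level of the 60 over all samples, 4.98 log2 CPM per kb, against 2.80 for Ckap2l, in the authors' deposited table. These means include the 8 h samples, so the changes at 8 h are part of their difference. Ckap2 shares no exon bases with another gene, and 4.33% of its 50-base stretches occur in other transcripts.

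The other 7 spindle genes fell at 8 h in the authors' deposited table, and 5 of them rose at 1 h. Troap, a spindle-associated protein, gave 0.32 ± 0.10 at 1 h, -2.91 ± 0.14 at 8 h and -3.23 ± 0.14 between the times in the authors' deposited table. Nusap1, which bundles microtubules near chromosomes, gave 0.31 ± 0.08 and -2.63 ± 0.10, and Hmmr, a spindle protein also known as a hyaluronan receptor, gave 0.08 ± 0.08 and -2.36 ± 0.10 at 1 h and 8 h in the authors' deposited table. Tpx2, the activator of Aurora A, gave 0.17 ± 0.06 at 1 h, -2.09 ± 0.07 at 8 h and -2.25 ± 0.07 between the times in the authors' deposited table. Spag5, a partner of KNSTRN at the spindle, gave 0.18 ± 0.09 at 1 h (adjusted p 0.092, edgeR) and -2.10 ± 0.10 at 8 h, and Prc1, which bundles the central spindle, gave 0.17 ± 0.06, -1.91 ± 0.07 and -2.08 ± 0.07 between the times in the authors' deposited table. Exon bases of Prc1 overlap Rccd1 on the other strand for 11.1% of their length.

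All 3 cytokinesis genes fell at 8 h in the authors' deposited table, and 1 rose at 1 h. Racgap1, the centralspindlin subunit, gave 0.16 ± 0.05 at 1 h, -2.14 ± 0.06 at 8 h (adjusted p 8.3e-294, edgeR) and -2.30 ± 0.06 between the times in the authors' deposited table. Ect2, the exchange factor that centralspindlin recruits to switch on RhoA, gave -0.02 ± 0.07, -1.88 ± 0.08 and -1.86 ± 0.08 in the authors' deposited table. Anln, the scaffold of the contractile ring, fell less, with -0.09 ± 0.06, -0.96 ± 0.07 and -0.87 ± 0.07 in the authors' deposited table, to 51.4% of control at 8 h.

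Chromosome structure genes fell to different depths. All 8 fell at 8 h in the authors' deposited table, with a median of -1.83, and at 1 h 4 rose and 1 fell. Mki67, which coats mitotic chromosomes and serves as a proliferation marker, gave 0.05 ± 0.06 at 1 h, -2.81 ± 0.06 at 8 h and -2.86 ± 0.06 between the times in the authors' deposited table, and at 8 h it stood at 14.3% of control. Top2a, the topoisomerase that untangles sister chromatids, gave 0.16 ± 0.04, -2.41 ± 0.05 and -2.57 ± 0.05 in the authors' deposited table. For these genes the deposited p at 8 h is 0, and none is printed. Cdca2, a targeting subunit of protein phosphatase 1 on chromatin, gave 0.24 ± 0.09 at 1 h and -2.27 ± 0.11 at 8 h in the authors' deposited table.

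The 5 subunits of condensin I, the ring that compacts chromosomes once the nuclear envelope opens, fell to very different depths. In the authors' deposited table Ncapg gave -2.45 ± 0.10 at 8 h, Ncapd2 -1.40 ± 0.04 (adjusted p 8.4e-254, edgeR) and Ncaph -0.86 ± 0.05. Smc2 and Smc4, the ATPase arms that condensin I shares with condensin II, gave -0.80 ± 0.05 and -0.67 ± 0.04 in the authors' deposited table, 57.4% and 63.0% of control. Their 95% intervals at 8 h, -0.90 to -0.70 and -0.75 to -0.59, did not meet those of Ncapg, -2.65 to -2.26, or Ncapd2, -1.48 to -1.32. At 1 h the authors' deposited table gives 0.02 ± 0.08 for Ncapg, 0.12 ± 0.04 for Ncapd2, 0.25 ± 0.05 for Ncaph, -0.13 ± 0.05 for Smc2 and 0.08 ± 0.04 for Smc4. Between the times the values were -1.52 ± 0.04 for Ncapd2, -1.11 ± 0.05 for Ncaph, -0.67 ± 0.05 for Smc2 and -0.75 ± 0.04 for Smc4 in the authors' deposited table. Exons of Ncapg overlap Lcorl on the other strand for 13.4% of their length.

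The last 3 genes, of other roles in cell division, all fell at 8 h, and the deepest fall of the 60 was among them. Arhgef39 gave 0.37 ± 0.20 at 1 h (adjusted p 0.12, edgeR), -3.36 ± 0.28 at 8 h and -3.73 ± 0.27 between the times in the authors' deposited table. Its mean was 1.20 log2 CPM in the authors' deposited table, and its 95% interval at 8 h, -3.90 to -2.83, was the widest of the 60. Sapcd2, a regulator of spindle orientation, gave -0.06 ± 0.08, -3.07 ± 0.11 and -3.01 ± 0.11 in the authors' deposited table, and Cdca3, a protein of mitotic entry, gave 0.32 ± 0.07, -2.36 ± 0.09 and -2.68 ± 0.09. The 8 deepest falls were those of Arhgef39, Cdc25c, Sapcd2, Troap, Plk1, Ccnb1, Cenpf and Mki67, from -3.36 to -2.81, and the 95% interval of Arhgef39 met those of the other 7.

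Other genes of the same machines moved less as a whole. Of 124 such genes in 8 lists, 85 fell and 16 rose at 8 h in the authors' deposited table, with a median of -0.30, and 35 fell at least 2-fold. Of all genes tested, 28.2% fell, 27.4% rose and 5.81% fell at least 2-fold. At 1 h, 38 of the 124 rose and 25 fell, with a median of 0.06, beside 20.5% and 22.2% of all genes. Between the times 80 fell and 28 rose, with a median of -0.36, beside 32.4% and 30.3% of all genes. The lists differed from each other, and their counts at 8 h stand beside the same 28.2% and 27.4% of all genes. Of 32 other kinetochore genes 28 fell and 2 rose at 8 h, with a median of -1.05. Of 16 other APC/C genes 6 fell and 4 rose, not far from the shares of all genes, with a median of -0.04. The APC/C inhibitor gene Fbxo5 fell by 1.68 ± 0.09 in the authors' deposited table, whereas the core subunit genes gave 0.30 ± 0.03 for Anapc2, 0.14 ± 0.04 for Anapc7, 0.12 ± 0.04 for Anapc4, 0.10 ± 0.04 for Cdc16 and -0.26 ± 0.06 for Anapc15. Apart from Fbxo5, these APC/C genes lay between -0.26 and 0.30, close to the control level as was Fzr1, unlike Cdc20 and Ube2c.

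Of the other kinetochore genes, the scaffold gene Knl1 gave -2.84 ± 0.11 at 8 h and Kntc1, a checkpoint protein of the outer kinetochore, -2.36 ± 0.09 in the authors' deposited table. The risers were Cenpt, the inner anchor of NDC80, at 0.46 ± 0.04 and Zwint, which binds KNL1, at 0.35 ± 0.03 in the authors' deposited table. Of 13 genes around the CDK1 switch, kinases, phosphatases and their partners, 8 fell and 1 rose at 8 h, with a median of -0.48. Pkmyt1, an inhibitory kinase of CDK1, fell by 1.31 ± 0.08 and the phosphatase gene Cdc25a fell by 0.69 ± 0.06 in the authors' deposited table. Gtse1, a microtubule-binding protein that also binds p53, rose by 0.44 ± 0.04 at 1 h and stood at 0.79 ± 0.04 at 8 h in the authors' deposited table.

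Of 13 cohesin genes 9 fell and 1 rose at 8 h, with a median of -0.17. The acetyltransferase gene Esco2 gave -2.09 ± 0.14 and Cdca5, which encodes sororin, -1.52 ± 0.14 in the authors' deposited table, while the ring subunit gene Smc1a fell by 0.36 ± 0.04 and the release factor gene Wapl rose by 0.09 ± 0.04. Of the 3 condensin II genes 2 fell and 0 rose. Ncapg2 gave -1.40 ± 0.06 and Ncapd3 -0.56 ± 0.05 in the authors' deposited table, and Ncaph2 gave -0.04 ± 0.04. In both condensins the subunit gene with the deepest fall was thus the G subunit.

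Of 15 genes of the MuvB, MYB, E2F and NF-Y factors 9 fell and 4 rose at 8 h, with a median of -0.18. Mybl2, which encodes B-MYB, gave -1.82 ± 0.09, Rbl1, the pocket protein p107, -0.93 ± 0.07 and Tfdp1, a partner of E2F, -0.27 ± 0.03 in the authors' deposited table. Genes of the DREAM complex went both ways. Rbl2 and E2f4 rose by 0.12 ± 0.05 (adjusted p 0.043, edgeR) and 0.11 ± 0.05 (adjusted p 0.029) in the authors' deposited table, while its MuvB core genes Lin9 and Lin54 and the histone-binding subunit gene Rbbp4, picked after their values were seen, gave -0.44 ± 0.08, -0.40 ± 0.07 and -0.17 ± 0.03, and Lin37 and Lin52 did not pass the test. E2f5 rose by 0.35 ± 0.06 and the CCAAT-binding subunit gene Nfyb by 0.36 ± 0.05 in the authors' deposited table. Of 24 centrosome and spindle pole genes 18 fell and 2 rose at 8 h, with a median of -0.52. Aspm, a spindle pole protein of neural progenitors, gave -2.44 ± 0.08, the centriole duplication gene Stil -1.98 ± 0.09 and Tacc3 -1.56 ± 0.07 in the authors' deposited table. Psrc1, a microtubule-binding protein, rose by 0.63 ± 0.04 and the augmin subunit gene Haus2 by 0.28 ± 0.05 in the authors' deposited table. Of 8 other cytokinesis genes 5 fell and 2 rose, with a median of -0.50. Iqgap3 gave -2.34 ± 0.10, the citron kinase gene Cit -1.89 ± 0.12 and Arhgap11a -0.83 ± 0.06, while Chmp4b of the ESCRT machinery rose by 0.12 ± 0.04 and Rhoa by 0.11 ± 0.03 in the authors' deposited table.

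**Figure D4:**
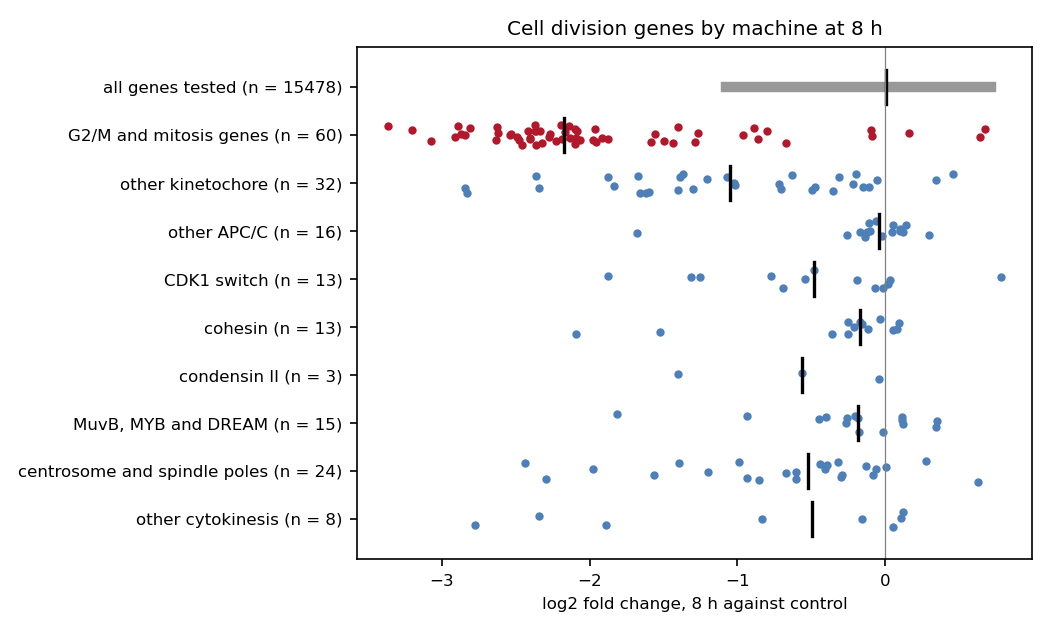
Log2 fold change at 8 h against control (x axis) of the 60 genes (red) and of the other genes of the same machines (blue), 1 point per gene with vertical jitter, and the median of each group as a black bar; for all 15478 genes the grey bar spans the 5th to the 95th percentile. The median of the 60 stands at -2.17 and that of the other kinetochore genes at -1.05, while the other APC/C genes stand at -0.04.

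The changes at 1 h were compared with properties of the genes, as a description. Over the 60 genes, the log2 fold change at 1 h in the authors' deposited table had a Spearman rank correlation of -0.41 with exon length, -0.40 with mean log2 CPM and -0.31 with the length of the gene from start to end. Over 15463 genes placed on GENCODE M21 (GRCm38) the same values were -0.40, -0.34 and -0.43. All points share the same libraries and control samples. The 30 shortest of the 60 genes, 3.55 to 18.5 kb long, had a median of 0.28 at 1 h and 17 of them rose. The 30 longest, 20.8 to 63.8 kb, had a median of 0.16 with 17 that rose and 1 that fell. Beside these counts stand 20.5% of all genes that rose and 22.2% that fell at 1 h, of any length. At 8 h the medians of the 30 shortest and the 30 longest were -2.28 and -2.12, and the rank correlation with gene length over the 60 was 0.12. The part of length in the result at 1 h was not tested.

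The labelled cell type carried its markers. All 10 neural precursor markers are in the authors' deposited table, with means of 1.55 to 11.97 log2 CPM, and 4 rose and 5 fell at 8 h. Beside this and the following marker counts stand 27.4% of all genes that rose and 28.2% that fell at 8 h. Among them, the filament gene Nes gave 0.54 ± 0.04 and Sox2 -0.09 ± 0.03 at 8 h in the authors' deposited table, while the Notch target gene Hes5 gave -2.38 ± 0.20. Markers of other lineages were present and mostly lower at 8 h. Of the neuron markers 6 of 7 and of the oligodendrocyte lineage markers 7 of 8 fell and 0 rose in the authors' deposited table. Of the astrocyte markers 4 of 5 fell. Medians were -0.79 for the neuron and -0.78 for the oligodendrocyte lineage markers. Pdgfra of oligodendrocyte precursors gave -2.89 ± 0.06 and the neuroblast gene Dcx -1.62 ± 0.10. Olig1 and Olig2 gave only -0.28 ± 0.04 and -0.21 ± 0.04, and Cspg4 (0.09 ± 0.05) and Tubb3 (-0.12 ± 0.06) did not pass the test. Of the markers of other brain cells, the authors' deposited table lists 2 of 7 for microglia and 2 of 5 for endothelium, of which 0 fell and 0 rose at 8 h, and 3 of 5 for ependyma, of which 2 rose. The markers given with values were picked after these were seen. The part of such shifts in the fall of the 60 genes was not tested.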

How the data were processed

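Poly-A RNA of 12 samples was sequenced with a stranded kit, per the labels. The deposited tables hold no columns of per-sample values (0 columns). Reads were counted by the authors with featureCounts, per the file headers, and genes were tested with edgeR (GLM, tagwise dispersion, likelihood ratio test) and, in a second table, with voom, sample quality weights and limma; GRCm38 is the build per the labels. Log2 fold changes and mean log2 CPM are as deposited by the authors. As deposited, the likelihood ratio is a score without a fixed range. The deposited p-value is the authors', with its Benjamini-Hochberg adjusted form over 15478 genes. Other deposited columns, such as exon length and the authors' calls, are not measurements. The tables are named as filtered and with outlier samples removed. Not given in the sources used here are the aligner, versions, annotation release, design formula, strand setting of the counting and depth.

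A count test with the animal as a block could not be run, so the authors' edgeR table was used as deposited. Recomputed adjusted p-values matched it to within 1.3e-15, and 0 calls differed from an adjusted p below 0.05. The implied standard error was 1.08, 0.924 and 0.917 times that of the authors' voom fit in the median of the 60 genes, at 1 h, at 8 h and between the times, and a 95% interval is 1.96 such errors to each side. These errors come from the authors' fit, whose design formula is not given, so which spread between samples they measure is unknown. A deposited p of 0 (2 of the 60 genes at 8 h, 4 between the times) is not printed. Shared exon bases and 50-base stretches were counted on GENCODE M21, whose exon lengths equal the deposited ones for all 60 genes and for 98.15% of 15463. Analyses used Python 3.11.15, pandas 2.3.3, NumPy 2.4.6 and SciPy 1.17.1, and the calling step was tested on simulated data.

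The 60 genes, the lists of 124 other genes and of markers, and the alternatives were chosen with earlier results of these data known. All 60 may be named. Of each other list, the 3 genes with the smallest adjusted p at 8 h and those that rose there are named. An item that this rule chooses is not reported here. Values in all 3 comparisons are given at least for the 8 lowest and 8 highest at 8 h, the 6 highest at 1 h and up to 3 genes a role. Alternatives were the voom table, an adjusted p below 0.01, a 2-fold minimum, a mean of at least 1 log2 CPM, centring on the median of all genes and, added after the data were seen, genes without shared exons or copies.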

Additional observations from a re-analysis of the deposited data

Results flagged for a closer look

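All 60 genes had a different effect at 1 h and at 8 h by the direct comparison of the 8 h with the 1 h samples, the edgeR test with Benjamini-Hochberg adjustment in the authors' deposited table, where 62.7% of all genes passed. Among them, the genes that had risen at 1 h and fallen at 8 h against the shared control samples were picked out because the groups moved in opposite directions. The differences between 8 h and 1 h that follow, in log2 units, are from the authors' deposited table, with implied standard errors of 0.04 to 0.14. Each equals the 8 h value minus the 1 h value to within 1.0e-14, so its negative sign follows from this choice of genes. In the CDK1 engine they were -2.75 for Ccna2, -2.65 for Ccnb2, -2.53 for Cdk1, -2.31 for Foxm1 and -1.17 for Cks2. Among the mitotic kinases they were -2.88 for Pbk, -2.69 for Nek2 and -2.42 for Melk, and for the checkpoint kinase gene Bub1 the difference was -2.47. The chromosomal passenger genes gave -2.76 for Birc5, -2.74 for Aurkb, -2.42 for Cdca8 and -1.43 for Incenp. In the APC/C group Ube2c gave -2.92 and Sgo1 -2.67.

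Kinetochore genes gave -2.96 for Knstrn, -2.73 for both Spc24 and Ndc80, -2.67 for Nuf2, -1.89 for Cenpm and -1.88 for Cenpk in the authors' deposited table. The spindle genes gave -3.23 for Troap, -2.94 for Nusap1, -2.80 for Ckap2l, -2.25 for Tpx2 and -2.08 for Prc1. Racgap1 of cytokinesis gave -2.30. Chromosome structure genes gave -2.57 for Top2a, -2.51 for Cdca2, -1.52 for Ncapd2 and -1.11 for Ncaph, and Cdca3 gave -2.68.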

How the results depend on the processing

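Medians of the 60 genes kept their direction in every setting run. They moved beyond the median implied standard error only for 8 h against 1 h, among the 39 genes without shared exons or copies. There the median was -2.30, and this subset was chosen after the data were seen. In that subset 20 genes rose at 1 h, 36 fell at 8 h and 37 fell between the times. Of all genes tested, 20.5% rose at 1 h, 28.2% fell at 8 h and 32.4% fell between the times. With a 2-fold minimum, 0 of the 60 rose and 0 fell at 1 h, 0 rose at 8 h and 0 rose between the times. Of the 124 other genes 0 rose and 0 fell at 1 h, and 0 rose and 35 fell at 8 h. Between the times 0 of the 124 rose and 40 fell. Beside these stand all 15478 genes, of which 618 rose and 28 fell 2-fold at 1 h. At 8 h 408 of them rose and 899 fell 2-fold, and between the times 261 rose and 1439 fell. At an adjusted p below 0.01, 0 of the 60 fell at 1 h. The other counts under these settings, and all under the voom table, the expression filter and centring, stayed within 1.5 times. Of single genes of the 60, the rise of Nuf2 at 1 h was lost on centring (0.17), the fall of Fzr1 between the times was lost in the voom table (-0.10) and on centring (-0.09), and Cdc20 at 1 h passed in the voom table (0.18); no direction reversed.

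No paired analysis was possible because the tables hold no value of a single sample, and leaving out each replicate was not run for the same reason. The number of samples behind each test, their depth and the samples removed are unknown, so no value rests on a known count of animals.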
